A study of Mus musculus with 30 samples.

Results

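Injured mouse muscle was compared between 7 days and 4 days after injury. The comparison took the 6 libraries labelled as 7 days after injury and the 6 labelled as 4 days after it, 12 of the 30 libraries of the series, and no measured value entered the choice. The study sequenced total RNA of mouse tibialis anterior, a shin muscle that lifts the foot, in both sexes. Besides uninjured muscle it covered days 4, 7, 11 and 15 of volumetric muscle loss, the surgical or traumatic removal of a piece of muscle too large to regrow. Each day held 3 libraries labelled male and 3 labelled female, so the 12 libraries form 4 groups that share the injury and differ in sex and day. The labels name no strain, genotype, age, drug or defect size, and they do not say how much of the muscle around the defect was taken. Nor do they state that each library is its own animal, so every p-value measures only how these samples vary, which may be technical.

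After injury, monocytes enter muscle and become macrophages that clear debris and then support repair. Satellite cells, the muscle stem cells marked by Pax7, divide, differentiate under the transcription factors Myod1 and Myog, and fuse into new fibres, which first carry embryonic and fetal proteins and later adult ones. Fibroblasts and fibro-adipogenic progenitors lay down matrix at the same time, and after volumetric muscle loss the defect is known to fill largely with scar.

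Levels are given as CPM, the count of a gene relative to the library total after TMM scaling, and changes as the log2 fold change of day 7 over day 4 ± SE, with both sexes weighted equally. A gene was called where its edgeR quasi-likelihood p-value, adjusted by Benjamini and Hochberg over 17136 tested genes, was under 0.05, and "rose" and "fell" are used only of called genes. Total counts were 47936072 to 57277336 at day 4 and 20674040 to 52483561 at day 7. The lowest total was that of male day 7 replicate 1, and the next lowest, female day 7 replicate 2, had 34629077. Xist was 366 to 1062 CPM in the 6 libraries labelled female and at most 0.184 CPM in the 6 labelled male, and the Y-linked Ddx3y was 30.6 to 44.3 CPM in the latter and had no counts in the former.

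Among the 12 libraries 3 stood apart, besides male day 7 replicate 1 with its low total. On principal component 1 of log2 CPM (45.7% of the variance) male day 7 replicate 2 lay at 10.7, whereas the other 5 day 7 libraries lay between -93.5 and -38.2 and the day 4 libraries between 24.2 and 97.8. The median correlation of this library was 0.979 with the day 4 libraries and 0.952 with the other day 7 libraries. Male day 7 replicate 1 lay at the day 7 extreme, -93.5. Female day 4 replicate 2 lay at the day 4 extreme. Its mean level of 21 fast contractile genes was 8.09 log2 CPM, against 10.6 to 11.0 in the other 5 day 4 libraries. Female day 7 replicate 3 had the lowest fast contractile level of day 7, 9.86 log2 CPM against 10.9 to 12.5 in the others, with the highest mean of the adipocyte list, 3.19 log2 CPM against -0.16 to 1.55. Whether the amount of surviving muscle in each piece of tissue differed was not tested. Calls of genes named by rule that were lost without 1 library are marked as such, and list members named besides were followed only through the count of their list.

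**Figure D1:**
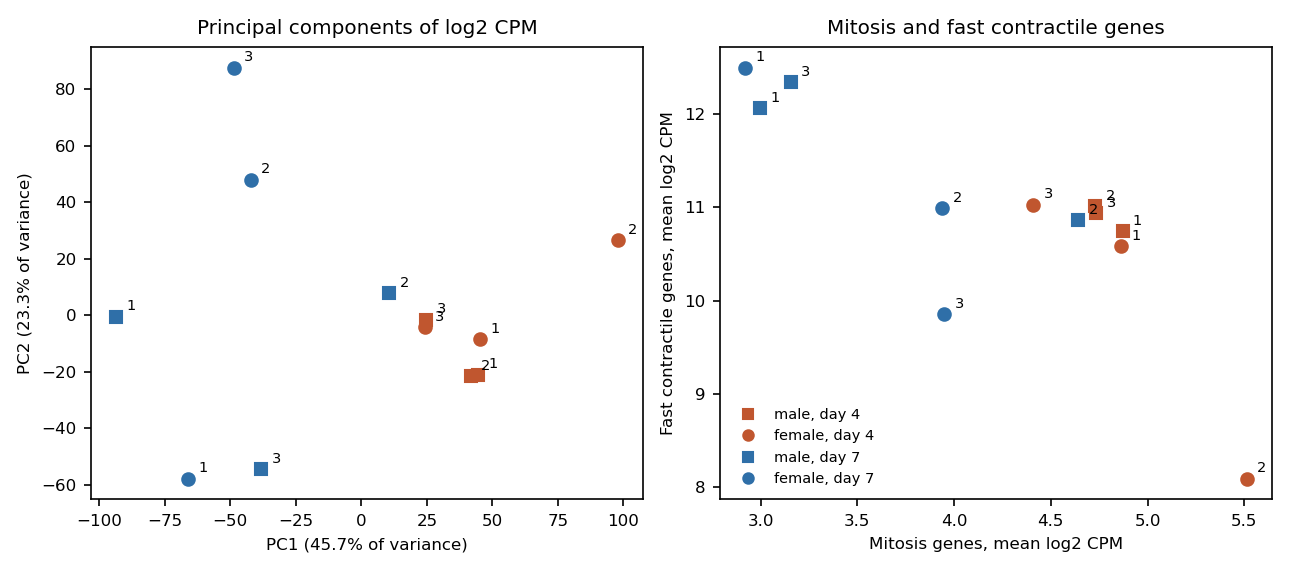
The 12 libraries on the first 2 principal components of log2 CPM (left, arbitrary units) and by the mean log2 CPM of 21 mitosis and 21 fast contractile genes (right). Squares are male and circles female, orange is day 4, blue is day 7, and the number beside a point is its replicate; male day 7 replicate 2 sits beside the day 4 libraries in both plots, and female day 4 replicate 2 has the lowest contractile level, 8.09.

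The step from day 4 to day 7 changed 6034 of 17136 tested genes (35.2%). Of these, 3174 were higher at day 7 (18.5% of tested genes) and 2860 lower (16.7%), and 2425 differed by at least 1 on the log2 scale, 1388 upward and 1037 downward. With library size alone as the scaling, 5457 genes were called and 37.0% of the calls were higher, against 52.6% with TMM. The median gene changed by 0.055 with TMM and by -0.079 with library size alone, so fold changes are relative to the scaling. With library size alone no gene named by rule changed sign, and the called rises numbered 3 in place of 5 among endothelial genes, 2 in place of 4 among fibro-adipogenic progenitor genes, 2 in place of 5 among matrix proteases and 1 in place of 5 among pericyte genes, while proteasome falls numbered 7 in place of 4. All 6 day 7 libraries lay above all 6 day 4 libraries for 886 genes (5.17%) and below them for 1240 genes (7.24%). The number called fell to 4173 without female day 4 replicate 2 and to 3974 without male day 7 replicate 1.

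Genes of cell division were the group with the most members called, in percent of those tested. 18 of 21 mitosis genes and 19 of 22 DNA replication genes fell, 85.7% and 86.4% against 16.7% of all tested genes, with medians of -1.12 and -1.08 against 0.055. Rrm2, a subunit of the enzyme that makes deoxyribonucleotides, was 38.0 to 99.5 CPM (median 57.5) at day 4 and 6.44 to 32.3 CPM (median 10.5) at day 7. The days did not overlap, and Rrm2 fell by 2.31 ± 0.29 (edgeR adjusted p = 4.19e-05). Ccnb1, the cyclin that drives entry into mitosis, was 15.1 to 41.4 CPM (median 25.1) at day 4 and 3.40 to 20.6 CPM (median 6.37) at day 7. Its day 7 maximum belonged to male day 7 replicate 2, and the other 5 day 7 libraries, at 3.40 to 8.01 CPM, lay below every day 4 library. Ccnb1 changed by -1.69 ± 0.38 (edgeR adjusted p = 0.00267). In bulk tissue, fewer cells of a type and less RNA per cell cannot be told apart, here and in every result that follows.

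The other named members moved likewise. The spindle protein Tpx2 changed by -1.58 ± 0.30, the S and G2 phase cyclin Ccna2 by -1.45 ± 0.28, the replicative helicase subunit Mcm5 by -1.52 ± 0.27 and its loading partner Gins2 by -1.56 ± 0.38. Mki67, the gene of the proliferation antigen Ki-67, was 93.2 to 175 CPM (median 110.0) at day 4 and 34.8 to 121 CPM (median 70.5) at day 7, and its change of -0.70 ± 0.31 was not called (edgeR adjusted p = 0.0864). Cenpe, Ube2c, Gins1, Prim1 and Ccne2 were the other members not called. Leaving out single libraries gave 16 to 21 mitosis genes and 18 to 19 replication genes called lower. Uninjured muscle held less than either day, where Ccnb1 averaged 0.0439 ± 0.0481 CPM and Rrm2 1.48 ± 0.609 CPM (SD, n = 6).

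Promoters of mitotic genes are known to carry CCAAT boxes, bound by the factor NF-Y, and the cell cycle homology region, bound by repressor complexes outside of mitosis. RefSeq windows of 300 bases (250 before and 50 after the annotated start, GRCm38.p6) were found for 17 of the 21 mitosis genes, as 18 promoters. TTTGAA on either strand was in 13 of the 18 (72.2%), against 17.9% of 32851 promoters of the same length and 15.0% of those of the DNA replication genes. CCAAT on either strand was in 16 of the 18 (88.9%), against 37.4% of all promoters and 60% of the replication promoters. Both were in 72.2% of the mitosis promoters and 6.95% of all promoters. The 2 motifs can share 1 base. A match describes the letters and is not a measured binding site.

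The 150 bases before the start are printed for Ccnb1, the called mitosis gene with the largest change (chr13:100786487-100786636, minus strand), and, chosen after their values were seen, for the 3 called mitosis genes with the largest fall whose 150 bases hold both motifs: Cdc20, the activator of the anaphase-promoting complex (chr4:118437344-118437493, minus strand), the spindle motor Kif11 (chr19:37376232-37376381, plus strand) and the DNA topoisomerase Top2a (chr11:99024190-99024339, minus strand). Capitals mark the homology region TTTGAA, which reads TTCAAA on the other strand, and the box CCAAT, which on that strand reads ATTGG.
Ccnb1: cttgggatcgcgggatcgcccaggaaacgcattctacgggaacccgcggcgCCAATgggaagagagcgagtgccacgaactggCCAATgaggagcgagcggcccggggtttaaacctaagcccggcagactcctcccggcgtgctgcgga
Cdc20: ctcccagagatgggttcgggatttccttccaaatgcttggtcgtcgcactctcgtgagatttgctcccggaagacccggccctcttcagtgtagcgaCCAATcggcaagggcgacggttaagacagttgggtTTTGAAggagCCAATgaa
Kif11: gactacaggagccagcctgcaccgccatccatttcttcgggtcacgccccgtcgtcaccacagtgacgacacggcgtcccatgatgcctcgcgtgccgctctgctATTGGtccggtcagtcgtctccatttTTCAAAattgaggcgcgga
Top2a: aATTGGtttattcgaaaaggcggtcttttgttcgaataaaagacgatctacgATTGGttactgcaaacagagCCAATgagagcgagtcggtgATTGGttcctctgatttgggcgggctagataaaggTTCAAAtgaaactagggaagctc
Ccnb1 shows 2 CCAAT boxes, and its 300-base window held no TTTGAA. Cdc20 shows 2 CCAAT boxes and 1 TTTGAA, Kif11 1 of each and Top2a 4 and 1. Cdc20 changed by -1.39 ± 0.30, Kif11 by -1.21 ± 0.26 and Top2a by -1.06 ± 0.32.

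Some muscle stem cell and fusion genes also fell. In the satellite cell list 6 of 15 genes were lower (40.0%) and 1 was higher, and in the list of myogenic regulators and fusion factors 7 of 14 were lower (50%), against 16.7% of all tested genes, with medians of -0.39 and -0.50. Pax7, the transcription factor that marks satellite cells, was 7.65 to 18 CPM (median 10.6) at day 4 and 1.98 to 5.66 CPM (median 3.29) at day 7. No day 7 library reached the lowest day 4 library, and Pax7 changed by -1.65 ± 0.31 (edgeR adjusted p = 5.65e-04). Cdh15, which encodes the adhesion protein M-cadherin, was 72.9 to 119.7 CPM (median 87.0) at day 4 and 19.9 to 41.5 CPM (median 33.5) at day 7, again with no overlap (-1.51 ± 0.16). Myf5, the adhesion receptor Vcam1, the engulfment receptor Megf10 and the chemokine receptor Cxcr4 were the further satellite cell genes that fell. Chrdl2, a secreted BMP antagonist, was the member that rose (2.36 ± 0.49).

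Myod1, the factor that commits myoblasts to the muscle lineage, was 107 to 201 CPM (median 120.3) at day 4 and 44.9 to 79.9 CPM (median 56.7) at day 7, without overlap (-1.16 ± 0.24, edgeR adjusted p = 0.00122). Mymk, the membrane protein myomaker that fuses myoblasts, was 340.2 to 435 CPM (median 371) at day 4 and 83.5 to 284 CPM (median 106) at day 7. Its days did not overlap either, and it changed by -1.42 ± 0.39 (edgeR adjusted p = 0.00856). The cell cycle inhibitor Cdkn1a fell by the same test (-1.28 ± 0.35), as did Mymx, the partner of myomaker (-1.08 ± 0.38), whose call was lost in 7 of the 12 fits that left out 1 library. Myog, which drives terminal differentiation, was 401 to 539 CPM (median 516) at day 4 and 171 to 595 CPM (median 303) at day 7. The days overlapped, and its change of -0.59 ± 0.32 was not called (edgeR adjusted p = 0.156). Without female day 4 replicate 2, 3 of 15 satellite cell genes and 4 regulator genes were called lower, and without male day 7 replicate 1 also 4 regulator genes.

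Genes of immature fibres did not move as 1 group. Of 15 tested, 2 rose (13.3%, against 18.5% of all tested genes) and 1 fell (6.67%, against 16.7%). Sln, whose peptide sarcolipin inhibits the calcium pump of the sarcoplasmic reticulum, was 17.0 to 136 CPM (median 78.4) at day 4 and 184 to 659 CPM (median 242) at day 7. Every day 7 library exceeded every day 4 library (2.08 ± 0.42, edgeR adjusted p = 0.00121). Dlk1, a Notch-related protein of growing muscle, rose by 1.83 ± 0.43, and the intermediate filament gene Nes fell (-0.80 ± 0.23). The myosins of new fibres were not called. Embryonic Myh3 was 1578 to 2320.4 CPM (median 1947) at day 4 and 608 to 2013 CPM (median 887) at day 7, a change of -0.86 ± 0.45 (edgeR adjusted p = 0.143), and neonatal Myh8 was 391 to 862 CPM (median 557) at day 4 and 515 to 1704 CPM (median 759) at day 7, a change of 0.63 ± 0.39 (edgeR adjusted p = 0.218). Both remained far above uninjured muscle, where Myh3 averaged 4.29 ± 2.89 CPM and Myh8 15.3 ± 3.72 CPM.

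Adult fast fibre genes were higher at day 7, with wide spread between libraries. In the fast contractile list 10 of 21 genes rose (47.6% against 18.5% of all tested genes, median 1.03), and in the list of excitation-contraction coupling 9 of 15 (60%, median 0.87). Tnni2, the inhibitory subunit of fast troponin, was 293 to 3095 CPM (median 2457) at day 4 and 2195 to 13496 CPM (median 6402) at day 7. The days overlapped, and the low ends were female day 4 replicate 2 and female day 7 replicate 3. Tnni2 changed by 1.66 ± 0.42 (edgeR adjusted p = 0.00484). Trdn, which encodes triadin of the calcium release complex, was 59.1 to 588 CPM (median 290.2) at day 4 and 429.8 to 2999.8 CPM (median 1005) at day 7 (2.01 ± 0.40, edgeR adjusted p = 0.00109). Its overlap came from male day 7 replicate 2, at 429.8 CPM, and female day 7 replicate 3, at 573 CPM, which lay below the highest day 4 library.

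Several other fast fibre calls rested on single libraries. The calcium buffer Pvalb (1.93 ± 0.55), the calcium pump Atp2a1 (1.37 ± 0.43) and the chloride channel Clcn1 (1.67 ± 0.48) were not called without female day 7 replicate 1, at edgeR adjusted p of 0.0556, 0.0912 and 0.0611. The change of Atp2a1 was then 0.86. The fast myosin Myh4 (1.35 ± 0.46) lost its call in 6 of the 12 such fits, and the kinase Mylk2 (1.53 ± 0.46) without female day 7 replicate 1 or male day 7 replicate 1. Without female day 7 replicate 1, Myh4 changed by 0.85 and Mylk2 by 1.0. The number of fast contractile genes called higher was 3 without female day 4 replicate 2, 3 without female day 7 replicate 1, 3 without male day 7 replicate 1, 6 without male day 4 replicate 1 or 2, and 1 when only the 12 libraries were fitted. Pvalb, Atp2a1, Myh4 and Mylk2 were not called in that fit. For the coupling list the number was 5 in it, 3 without female day 7 replicate 1 and 5 without male day 7 replicate 1. The list medians stayed between 0.59 and 1.40 and between 0.63 and 1.10 in all alternatives. Ckm, the muscle creatine kinase gene, was 321 to 2567 CPM (median 1892) at day 4 and 347 to 6257 CPM (median 2019) at day 7 and was not called (0.73 ± 0.48, edgeR adjusted p = 0.247).

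Day 7 levels of these genes remained below uninjured muscle. Tnni2 averaged 6890.0 ± 4299 CPM at day 7 and 27754 ± 4520.0 CPM in uninjured muscle, and Pvalb 7161 ± 5172 CPM and 40934 ± 6402 CPM. In the slow fibre list 1 of 13 genes rose (7.69%, against 18.5% of all tested genes) and 3 fell (23.1%, against 16.7%). The list median was 0.022, with 7 changes positive and 6 negative. The 9 members not called included the slow myosin Myh7, the light chains Myl2 and Myl3 and the troponins Tnnt1, Tnnc1 and Tnni1. Atp2a2, the slow fibre calcium pump, was 206 to 359 CPM (median 273) at day 4 and 76.1 to 184 CPM (median 132) at day 7, with no overlap (-1.11 ± 0.25, edgeR adjusted p = 0.00221). The slow tropomyosin Tpm3 (-0.94 ± 0.22) and the calcium-binding Casq2 (-0.65 ± 0.24) fell as well. The Z-disc gene Actn2 rose (1.05 ± 0.34) but was not called without female day 4 replicate 2, male day 4 replicate 1 or male day 7 replicate 1.

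Some glycolysis genes rose, while rises in the other energy metabolism lists were about as frequent as among all genes. Of the glycolysis and glycogen list 6 of 18 rose (33.3%, median 0.68), of oxidative phosphorylation and TCA cycle genes 5 of 23 (21.7%, median 0.48) and of fatty acid oxidation genes 3 of 17 (17.6%, median 0.23), the last 2 near the 18.5% of all tested genes. None of the 3 lists held a called fall, against 16.7% of all tested genes. Changes were positive for 15, 21 and 13 of their tested genes. Without female day 7 replicate 1 the called falls numbered 1, 1 and 2. Members that rose included the muscle phosphoglycerate mutase Pgam2 (1.44 ± 0.37) and the muscle isoforms of cytochrome oxidase subunits, Cox6a2 (1.46 ± 0.39), Cox7a1 (1.65 ± 0.39) and Cox8b (1.46 ± 0.36). All 4 stayed called in each fit that left out 1 library, and Cox6a2 was not called when only the 12 libraries were fitted. The glycogen kinase subunit Phkg1 (1.65 ± 0.47) was not called without female day 7 replicate 1, and Gpd1 (1.32 ± 0.43) not in 5 of the 12 fits, with a change of 0.69 without female day 7 replicate 1. Called glycolysis rises ranged from 1, without female day 7 replicate 1, to 10, without female day 7 replicate 3 or male day 7 replicate 2. They were 2 without female day 4 replicate 2 or male day 7 replicate 1, and 3 without male day 4 replicate 3 or male day 7 replicate 3. Called oxidative rises ranged from 3, without any of 5 single libraries (female day 4 replicate 2, female day 7 replicate 1, male day 4 replicate 1 and male day 7 replicates 1 and 3), to 10 without male day 7 replicate 2 and 11 without female day 7 replicate 3. Fatty acid oxidation had 1 call without female day 4 replicate 2 or male day 7 replicate 1, and its median was -0.16 without female day 7 replicate 1. With only the 12 libraries fitted, the 3 lists had 2, 2 and 1 calls.

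At the neuromuscular junction the adult epsilon subunit of the acetylcholine receptor rose and the fetal gamma subunit fell. Of 15 tested junction genes, 6 rose (40.0%, against 18.5% of all tested genes) and 4 fell (26.7%, against 16.7%). Chrne, the adult epsilon subunit, was 0.209 to 12.2 CPM (median 8.87) at day 4 and 20.5 to 66.7 CPM (median 45.1) at day 7. No day 7 library overlapped the day 4 libraries (2.47 ± 0.44, edgeR adjusted p = 5.68e-04), and female day 4 replicate 2 was by far the lowest. Chrng, the fetal gamma subunit that epsilon replaces, was 153 to 234 CPM (median 211) at day 4 and 33.9 to 134 CPM (median 64.1) at day 7, a fall without overlap (-1.44 ± 0.27, edgeR adjusted p = 6.19e-04). Chrna1, the alpha subunit shared by both receptors, was 431 to 619 CPM (median 473) at day 4 and 63.0 to 205 CPM (median 141) at day 7. It fell further than Chrng (-1.85 ± 0.32, edgeR adjusted p = 4.15e-04), a difference between the genes that was not tested.

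The receptor tyrosine kinase Musk (-1.22 ± 0.28) and the receptor-clustering protein Rapsn (-0.59 ± 0.17) fell with them. Chrnb1 (0.74 ± 0.22), the nerve-derived organiser Agrn (0.78 ± 0.24), its receptor Lrp4 (0.55 ± 0.21), Ache, the enzyme that clears acetylcholine (0.59 ± 0.23), and Ufsp1 (1.20 ± 0.24) rose. In uninjured muscle Chrne averaged 56.6 ± 32.0 CPM and Chrng 0.302 ± 0.199 CPM, so at day 7 the epsilon gene was near and the gamma gene far above the uninjured level. Called rises in this list numbered 2 without female day 4 replicate 2 and 3 without male day 4 replicate 2.

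**Figure D2:**
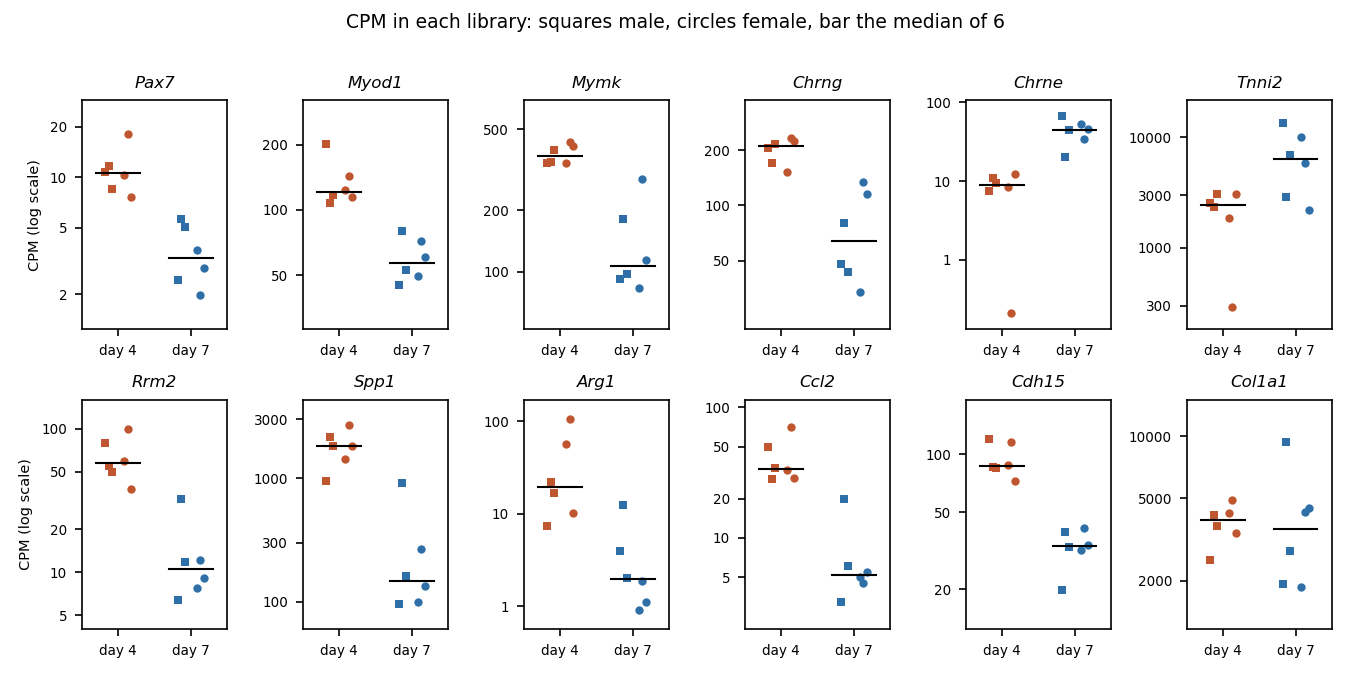
CPM of 12 genes in each library on log scales, day 4 in orange and day 7 in blue, squares male and circles female, with a bar at the median of 6. Pax7, Myod1, Mymk, Chrng, Rrm2, Spp1, Ccl2 and Cdh15 were lower and Chrne higher in every day 7 library than in every day 4 library, Tnni2 and Arg1 were called with overlap, and Col1a1 was not called.

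Some genes of each macrophage subtype list fell. Of the macrophage core list 9 of 15 were lower (60%, median -0.94), of the inflammatory monocyte list 8 of 14 (57.1%, median -1.27), of the lipid-associated repair macrophage list 6 of 14 (42.9%, median -0.84) and of the resident and alternatively activated list 7 of 15 (46.7%, median -0.84), against 16.7% of all tested genes. Itgam, the integrin chain CD11b of myeloid cells, was 78.2 to 162 CPM (median 92.2) at day 4 and 12.5 to 47.2 CPM (median 26.0) at day 7, with no overlap (-1.95 ± 0.38, edgeR adjusted p = 7.93e-04). Adgre1, which encodes F4/80, was 45.2 to 117 CPM (median 68.5) at day 4 and 11.0 to 35.0 CPM (median 24.8) at day 7, also with no overlap (-1.63 ± 0.39). Cd68, Cd14, Csf1r, Mertk, Fcgr1 and Lyz2 were among the others that fell. Without male day 7 replicate 1, 5 core genes were called.

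Chil3, a chitinase-like protein of monocytes, was 13.7 to 34.5 CPM (median 19.8) at day 4 and 0 to 1.35 CPM (median 0.747) at day 7. It had the largest fall of all named genes (-4.91 ± 0.55, edgeR adjusted p = 3.65e-05), and reads of its near-identical relatives may be counted with it. Ly6c2, a surface protein of inflammatory monocytes with a close paralog, was 3.02 to 12.1 CPM (median 6.99) at day 4 and 0.460 to 1.44 CPM (median 0.849) at day 7 (-2.91 ± 0.52), and the chemokine receptor Ccr2 fell by 1.34 ± 0.27. The inflammatory effectors Il1b (-0.55 ± 0.50) and Nos2 (0.28 ± 0.22) were not called. Spp1, which encodes osteopontin, was 944 to 2686 CPM (median 1818) at day 4 and 96.5 to 906 CPM (median 148) at day 7. Its days did not overlap by a small margin, since male day 7 replicate 2 held 906 CPM and male day 4 replicate 1 944 CPM (-2.82 ± 0.53, edgeR adjusted p = 9.20e-04).

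Gpnmb, a glycoprotein of lipid-laden macrophages, fell by 2.12 ± 0.49 and the lipid droplet coat gene Plin2 by 1.70 ± 0.26, whereas the lipoprotein lipase Lpl (-0.048 ± 0.26) and the lipid receptor Trem2 (-0.93 ± 0.39) were not called. Arg1, the arginine-degrading enzyme of alternatively activated macrophages, was 7.43 to 107 CPM (median 19.4) at day 4 and 0.911 to 12.5 CPM (median 1.96) at day 7. The days overlapped, and 2 female day 4 libraries were highest, female day 4 replicate 1 at 56.9 CPM and replicate 2 at 107 CPM (-3.39 ± 0.50, edgeR adjusted p = 1.76e-04). Pf4 (-2.04 ± 0.36), the folate receptor Folr2 (-1.93 ± 0.36), the haemoglobin scavenger receptor Cd163 (-1.13 ± 0.33) and the mannose receptor Mrc1 (-1.19 ± 0.26) fell. Lyve1, Timd4, Retnla, Cd209f, Clec10a, Ccl8 and Stab1 of the same list were not called. Igf1, the growth factor that macrophages and other cells supply to muscle, was the member that rose (0.99 ± 0.31). It was not called without male day 4 replicate 1.

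Genes of other leukocytes gave fewer calls. Of 10 tested neutrophil genes 3 fell (30%, against 16.7% of all tested genes). These were the collagenase Mmp8 (-1.55 ± 0.43), Clec4d (-1.38 ± 0.47) and Csf3r (-0.91 ± 0.30), of which only Mmp8 was called without male day 7 replicate 1 or without female day 7 replicate 1. Clec4d also lost its call without female day 4 replicate 2, male day 4 replicate 2 or male day 7 replicate 3. The abundant neutrophil gene S100a8 was 2.73 to 10.2 CPM (median 6.20) at day 4 and 3.54 to 12.1 CPM (median 6.19) at day 7 and was not called (edgeR adjusted p = 0.703). Dendritic cell genes gave 2 calls of 12, both lower (16.7%, equal to the share of all tested genes). These were Irf8 (-0.69 ± 0.27) and Fscn1 (-0.61 ± 0.21), and neither held without female day 4 replicate 2, female day 7 replicate 1, male day 7 replicate 1 or male day 7 replicate 3. In all, Irf8 lost its call in 9 of the 12 fits that left out 1 library and Fscn1 in 4. Of 14 T cell genes 1 fell and 1 rose, 7.14% each, below the 16.7% and 18.5% of all tested genes. Tcf7 fell (-0.71 ± 0.22, adjusted p 0.0512 in edgeR without male day 7 replicate 1). Foxp3, the factor of regulatory T cells, rose (1.64 ± 0.46) at mean levels of 0.108 CPM at day 4 and 0.348 CPM at day 7. Cd3e, part of the T cell receptor complex, stayed under 1 CPM in all 12 libraries. Of 10 B and plasma cell genes 2 rose (20%, near the 18.5% of all tested genes). These were the plasma cell genes Jchain (1.82 ± 0.38) and Mzb1 (1.59 ± 0.32), from means of 0.217 and 0.837 CPM to 0.770 and 2.56 CPM. Of 11 NK and cytotoxic genes 1 fell (9.09%, against 16.7% of all tested genes). It was the granule gene Gzma (-1.36 ± 0.52), a call that was lost in 10 of the 12 fits that left out 1 library. None of 7 mast cell genes was called by edgeR or by DESeq2, and 0 had an unadjusted p under 0.05.

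Secreted signals of inflammation fell too. Of 26 cytokine and chemokine genes 11 were lower (42.3%, against 16.7% of all tested genes, median -0.92), or 7 without male day 7 replicate 1. Ccl2, the chemokine that recruits monocytes, was 28.0 to 71.2 CPM (median 33.8) at day 4 and 3.22 to 19.7 CPM (median 5.23) at day 7, with no overlap (-2.54 ± 0.42, edgeR adjusted p = 3.47e-04). Ccl7, which acts through the same receptor, was 23.6 to 68.8 CPM (median 34.9) at day 4 and 1.33 to 14.5 CPM (median 5.45) at day 7, also without overlap (-2.63 ± 0.56), and Ccl6 fell by 2.04 ± 0.35. The macrophage growth factor Csf1 (-1.19 ± 0.23), Il33 (-0.93 ± 0.20), Osm (-1.29 ± 0.43) and the anti-inflammatory Il10 (-1.17 ± 0.41) were among the other members that fell. The chemokine receptor Ccr1 (-3.26 ± 0.43) was among the 12 largest falls with no overlap between the days.

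In the complement list 6 of 15 genes fell (40.0%, against 16.7% of all tested genes) and 2 rose (13.3%, against 18.5%). The anaphylatoxin receptors C3ar1 (-1.84 ± 0.38) and C5ar1 (-1.82 ± 0.40) fell without overlap between the days, and C1qc (-1.21 ± 0.39) fell but was not called without male day 7 replicate 1, when 3 genes of the list were called lower. C1s1 (0.87 ± 0.16) and C2 (0.67 ± 0.22), proteases of the classical pathway, rose, with 1 of them called without female day 4 replicate 2, female day 7 replicate 3 or male day 4 replicate 1. Of 19 interferon-stimulated genes 8 fell (42.1%, median -0.68), among them Rsad2 (-1.31 ± 0.31) and Gbp2 (-1.01 ± 0.27). The list median was -1.35 in males and -0.022 in females, a difference that was not tested. Mean levels were 4.53 to 5.56 log2 CPM at day 4 and 3.58 to 3.8 at day 7 in males, and 4.22 to 4.69 and 4.19 to 4.72 in females, where the days overlapped. The list was highest in male day 4 replicate 3, at a mean of 5.56 log2 CPM against 4.22 to 4.69 in the other day 4 libraries, and 3 members were called without it, 4 without male day 7 replicate 1 and 5 without male day 7 replicate 3.

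Lysosomal genes fell with the macrophage genes, 15 of 18 (83.3%, against 16.7% of all tested genes, median -0.87). Ctsb, which encodes cathepsin B, was 2828 to 3777 CPM (median 3069.6) at day 4 and 633 to 1666 CPM (median 1034) at day 7, with no overlap (-1.50 ± 0.31, edgeR adjusted p = 0.00127). The lysosomal lipase Lipa (-1.58 ± 0.31) and the progranulin gene Grn (-1.52 ± 0.34) fell without overlap. The cathepsin S gene Ctss, which cuts the invariant chain in antigen presentation, was 685 to 903 CPM (median 803) at day 4 and 52.2 to 402 CPM (median 135) at day 7, again without overlap (-2.29 ± 0.48). It was the only 1 of 10 MHC class II pathway genes called, with 2 called without male day 7 replicate 2.

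Collagen genes did not show a change between the days that passed the test. By edgeR 0 of 20 were called, 3 had an unadjusted p under 0.05, all higher at day 7, and DESeq2 called 1. The median change was 0.17 and was -0.12 without male day 7 replicate 2. Col1a1, the main fibrillar collagen, was 2506 to 4916 CPM (median 3923) at day 4 and 1869.5 to 9364 CPM (median 3546) at day 7 (0.11 ± 0.42, edgeR adjusted p = 0.862). The highest value was male day 7 replicate 2, at 9364 CPM, and the lowest 2 were male and female day 7 replicate 1. Without male day 7 replicate 2 the change of Col1a1 was -0.39, and it was -0.024 without female day 7 replicate 3 and -0.014 without male day 4 replicate 1, none of them called. Col3a1 was 1856 to 3250.1 CPM (median 2354) at day 4 and 1496 to 6447 CPM (median 2734) at day 7 (0.33 ± 0.37) and Postn, the matricellular protein periostin, 729 to 1657 CPM (median 1287) at day 4 and 668 to 4909 CPM (median 1890.4) at day 7 (0.80 ± 0.47), neither called. Uninjured muscle averaged 78.0 ± 46.7 CPM of Col1a1 and 6.49 ± 2.60 CPM of Postn.

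Enzymes that modify collagen included 5 of 18 that fell (27.8%, against 16.7% of all tested genes). These were the lysyl oxidases Lox (-1.06 ± 0.41), Loxl2 (-1.0 ± 0.38) and Loxl4 (-1.39 ± 0.29) with P4ha1 (-0.71 ± 0.16) and Plod1 (-0.39 ± 0.13), which hydroxylate proline and lysine. Lox and Loxl2 were not called in 9 and 7 of the 12 fits that left out 1 library, and male day 7 replicate 2 held the highest Loxl2 level of day 7, 176 CPM against 26.6 to 47.3 CPM in the others. Without it Loxl2 changed by -1.54 and 8 members were called, against 2 without male day 7 replicate 1 and 3 without any of 5 other libraries. Of 20 matricellular and glycoprotein genes 4 rose (20%, against 18.5% of all tested genes) and 2 fell (10%, against 16.7%). The microfibril gene Mfap4 was 34.2 to 104 CPM (median 52.4) at day 4 and 111 to 333 CPM (median 174) at day 7, with no overlap (1.79 ± 0.38, edgeR adjusted p = 0.00144). Eln, which encodes elastin, rose (1.14 ± 0.23), as did Thbs3 (1.10 ± 0.28) and vitronectin, Vtn (1.35 ± 0.26). Ccn2, the connective tissue growth factor gene, fell (-1.51 ± 0.39), as did Fbln2 (-0.58 ± 0.21), with 4 falls without male day 7 replicate 2 and 1 without any of 6 other libraries. Of 11 small leucine-rich proteoglycan genes 1 fell (9.09%, against 16.7%), Prelp (-0.64 ± 0.20). The list median was 0.17, or -0.01 without male day 7 replicate 2.

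Of 20 proteases and their inhibitors 5 were higher (25%, against 18.5% of all tested genes) and 6 lower (30%, against 16.7%). Adam8, a membrane protease of leukocytes, was 93.3 to 225 CPM (median 109) at day 4 and 20.4 to 76.6 CPM (median 40.6) at day 7. The days did not overlap, with male day 7 replicate 2 the highest of day 7 (-1.59 ± 0.29, edgeR adjusted p = 4.98e-04). The plasminogen activator Plau (-1.38 ± 0.18) and its receptor Plaur (-1.49 ± 0.31) fell, as did Mmp19 and Timp2. The gelatinase Mmp2 rose (0.99 ± 0.29), as did Mmp11, Mmp16, Mmp23 and Timp4, and the number of called rises was 1 to 3 in 10 of the 12 fits that left out 1 library. Timp4 (1.6 ± 0.55) was lost in 6 of them, and its change was 0.50 without female day 7 replicate 1 (edgeR adjusted p = 0.432).

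Among 14 myofibroblast genes 3 rose (21.4%, against 18.5% of all tested genes) and 1 fell (7.14%, against 16.7%). The collagen receptor subunit Itga11 was 6.59 to 11.6 CPM (median 9.29) at day 4 and 14.9 to 64.0 CPM (median 30) at day 7, with no overlap (1.81 ± 0.34, edgeR adjusted p = 6.32e-04), and the membrane protease Fap also rose (1.02 ± 0.18). The rise of Tpm2 (1.20 ± 0.34), a tropomyosin that muscle fibres also express, went with low levels in female day 4 replicate 2. Inhba, an activin subunit, fell (-1.33 ± 0.35). Without male day 7 replicate 2, 3 genes of the list fell. Acta2, the smooth muscle actin of myofibroblasts, was 416 to 787 CPM (median 699) at day 4 and 208 to 745 CPM (median 534) at day 7 and was not called (edgeR adjusted p = 0.399). Of 16 fibro-adipogenic progenitor genes 4 rose (25%, against 18.5% of all tested genes) and 5 fell (31.25%, against 16.7%). Clec3b was 0.663 to 15.9 CPM (median 9.98) at day 4 and 16.6 to 33.5 CPM (median 30.3) at day 7, with no overlap (1.80 ± 0.34), and Dpt (1.26 ± 0.32) and Pi16 (0.92 ± 0.32), markers of adventitial fibroblasts, rose with Osr2 (0.65 ± 0.25). The growth factor receptor Pdgfra (-0.51 ± 0.19), Ly6a (-0.94 ± 0.21), Gsn (-0.60 ± 0.20) and the hyaluronan synthases Has1 (-1.66 ± 0.52) and Has2 (-1.69 ± 0.47) fell. Has1 averaged under 1 CPM over the 12 libraries. There were 2 rises without female day 4 replicate 2, male day 4 replicate 1 or male day 4 replicate 3, and 3 falls without male day 7 replicate 1.

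In TGF-beta and BMP signalling 2 of 20 genes rose (10%, against 18.5% of all tested genes) and 6 fell (30%, against 16.7%). The ligands Tgfb2 and Tgfb3 were not called. The ligand Tgfb1 was 92.3 to 117 CPM (median 95.6) at day 4 and 29.1 to 76.4 CPM (median 46.9) at day 7, with no overlap (-1.0 ± 0.20, edgeR adjusted p = 0.00104). Its receptors Tgfbr1 (-0.68 ± 0.16) and Tgfbr2 (-0.67 ± 0.24), the latent binding protein Ltbp1 (-0.72 ± 0.23), the inhibitory Smad7 (-0.60 ± 0.19) and the BMP target Id2 (-1.46 ± 0.23) fell. Ltbp3, another latent binding protein, was 72.2 to 122 CPM (median 107) at day 4 and 170.5 to 415 CPM (median 218) at day 7, a rise without overlap (1.24 ± 0.18), and Bmp4 rose (0.94 ± 0.29). Ltbp3 was the only rise called without female day 4 replicate 2, male day 4 replicate 1 or male day 7 replicate 1.

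Some cartilage genes rose. Of 12 tendon genes 0 were called by edgeR, 2 had an unadjusted p under 0.05 and DESeq2 called 1, with a median of 0.60. By edgeR 2 were called higher when only the 12 libraries were fitted and 1 without female day 7 replicate 1. The tendon gene Tnmd was 8.33 to 17.4 CPM (median 11.6) at day 4 and 11.2 to 52.0 CPM (median 23.1) at day 7 (edgeR adjusted p = 0.0964, or 0.0314 with only the 12 libraries), and Comp, a matrix protein of cartilage and tendon, 3.34 to 12.1 CPM (median 9.71) at day 4 and 3.04 to 48.2 CPM (median 13) at day 7 (edgeR adjusted p = 0.114). Among 13 cartilage and bone genes 4 rose (30.8%, against 18.5% of all tested genes) and 3 fell (23.1%, against 16.7%). Acan, which encodes the cartilage proteoglycan aggrecan, was 0.399 to 1.28 CPM (median 0.823) at day 4 and 1.29 to 12.6 CPM (median 5.91) at day 7, low levels that did not overlap (2.72 ± 0.58, edgeR adjusted p = 0.00191). Col2a1 (1.30 ± 0.46) and Alpl (1.30 ± 0.40) rose. Matn4 (2.32 ± 0.61) reached 27.9 CPM in female day 7 replicate 3 and was not called without it, when it changed by 1.55. The bone factors Runx2 (-0.90 ± 0.30) and Sp7 (-1.63 ± 0.56) fell with Col10a1 (-1.06 ± 0.42), and these calls numbered 0 without female day 4 replicate 2, female day 7 replicate 1, male day 7 replicate 1 or male day 7 replicate 3. Called rises of the list numbered 2 without female day 4 replicate 2, female day 7 replicate 3 or male day 7 replicate 1.

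Some vessel genes rose. Of 16 endothelial genes 5 rose (31.2%, against 18.5% of all tested genes, median 0.33), or 3 without female day 4 replicate 2 or male day 7 replicate 1. The 5 were the tight junction gene Cldn5 (0.90 ± 0.22), Robo4 (0.88 ± 0.22), Sox17 (0.87 ± 0.22), Tie1 (0.59 ± 0.17) and Esam (0.49 ± 0.16). Pecam1, present on all endothelium, was 90.6 to 143 CPM (median 108) at day 4 and 73.1 to 155 CPM (median 108) at day 7 and changed by -0.041 ± 0.15 (edgeR adjusted p = 0.848), with positive values without female day 4 replicate 1 and without male day 7 replicate 2. Of 13 pericyte and smooth muscle genes 5 rose (38.5%, against 18.5% of all tested genes) and 1 fell (7.69%, against 16.7%). The smooth muscle myosin Myh11 was 9.19 to 24.8 CPM (median 14.8) at day 4 and 24.0 to 65.8 CPM (median 34.7) at day 7 (1.21 ± 0.24). The other calls of that list, Rgs5, Kcnj8, Smtn, Higd1b and the fall of Lmod1, depended on the libraries, and 1 rise was left without female day 4 replicate 2, male day 4 replicate 1 or male day 7 replicate 1. Of 15 angiogenic factors 2 rose (13.3%) and 3 fell (20%), near the shares of all tested genes. Vegfa was 40.7 to 175 CPM (median 121) at day 4 and 85.0 to 673 CPM (median 295) at day 7 (1.52 ± 0.46, edgeR adjusted p = 0.0142), and was not called without female day 4 replicate 2 or female day 7 replicate 1. Its change was 0.83 without the latter. Vegfb rose (0.76 ± 0.25), while Apln (-1.67 ± 0.27), Angpt2 (-0.87 ± 0.25) and Hgf (-1.46 ± 0.48) fell. Hgf was not called without female day 7 replicate 3, male day 4 replicate 2, male day 7 replicate 1 or male day 7 replicate 3, with an edgeR adjusted p of up to 0.0679. There were 0 rises without female day 4 replicate 2 and 1 without male day 4 replicate 1, without female day 7 replicate 1 or with only the 12 libraries.

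Nerve and Schwann cell genes gave 3 rises (21.4%, against 18.5% of all tested genes) and 1 fall (7.14%, against 16.7%) of 14. Sox10, the transcription factor of the Schwann cell lineage, was 0.417 to 2.32 CPM (median 1.24) at day 4 and 2.09 to 5.76 CPM (median 3.39) at day 7 (1.41 ± 0.33, edgeR adjusted p = 0.00310). The neurotrophic ligand Artn rose by 1.22 ± 0.41 and was called in 6 of the 12 fits that left out 1 library. Egr2, which drives myelination and is also an immediate early gene, fell (-0.78 ± 0.30), a call lost in 10 of the 12. Of 11 adipocyte genes 1 rose (9.09%, against 18.5% of all tested genes), the lipase Lipe (0.71 ± 0.24). Its call was lost in 5 of the 12 fits that left out 1 library, the one without female day 7 replicate 3 among them, with a change of 0.40 without male day 7 replicate 1. The list median of 1.21 was -0.43 without female day 7 replicate 3. The adipocyte list gave 0 calls without female day 4 replicate 2, male day 4 replicate 1 or male day 7 replicate 1, and 3 without male or female day 7 replicate 2. Skin genes, which would mark epidermis taken with the muscle, were at low levels, with 5 of 12 listed genes tested and Trp63 (0.84 ± 0.23) and Krt10 (0.74 ± 0.19) called higher at sums of at most 24.9 CPM. The red cell gene Alas2 fell (-1.73 ± 0.48), and was not called without female day 4 replicate 3, where it reached 48.7 CPM against 5.50 to 18.2 CPM in the other day 4 libraries. Its change was then -0.83 (edgeR adjusted p = 0.114).

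Genes of sterol synthesis, protein folding and secretion fell. In the list of cholesterol synthesis and uptake 9 of 15 were lower (60%, against 16.7% of all tested genes) and 2 were higher (13.3%, against 18.5%). Sqle, the monooxygenase that commits squalene to sterols, was 10.2 to 20.8 CPM (median 12.9) at day 4 and 2.55 to 10.9 CPM (median 4.43) at day 7 (-1.37 ± 0.25, edgeR adjusted p = 4.64e-04). The days overlapped through male day 7 replicate 2, which held 10.9 CPM. The demethylase Cyp51 (-1.32 ± 0.25), Hmgcs1 (-0.66 ± 0.17), Insig1 (-0.51 ± 0.16) and Srebf2 (-1.18 ± 0.18) fell, and Mvd (0.77 ± 0.26) and Dhcr7 (0.37 ± 0.14) rose. The 2 rises were each lost or reduced to 1 in 10 of the 12 fits that left out 1 library.

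Of 18 genes of ER stress and secretion 9 fell (50%, against 16.7% of all tested genes, median -0.72). Hspa5, the ER chaperone BiP, was 343 to 567 CPM (median 371) at day 4 and 77.1 to 323 CPM (median 138) at day 7, with no overlap (-1.36 ± 0.23, edgeR adjusted p = 3.14e-04). Canx (-1.55 ± 0.26) and Pdia6 (-1.40 ± 0.25), which fold secreted proteins, fell, while the stress factor Ddit3 rose (1.22 ± 0.22). In the heat shock list 6 of 16 fell (37.5%, against 16.7% of all tested genes), led after Hspa5 by Hsp90aa1 (-1.33 ± 0.23). Of 23 cytosolic ribosome genes 4 fell (17.4%) and of 20 proteasome genes 4 (20%), close to the 16.7% of all tested genes. Rpl3 (-1.10 ± 0.26) was the ribosomal gene with the largest fall. Without male day 7 replicate 1 both lists had 2 falls, and the proteasome list had 7 without female day 7 replicate 1 and 2 without female day 7 replicate 2. Immediate early genes gave 3 falls (17.6%, against 16.7% of all tested genes) and 1 rise (5.88%, against 18.5%) of 17. Junb changed by -0.71 ± 0.24, Nr4a1 by 1.03 ± 0.37 and Fosl1, at a mean under 1 CPM over the 12 libraries, by -2.97 ± 0.60. Nr4a1 was not called in 6 and Junb in 3 of the 12 fits that left out 1 library. The change of Nr4a1 was 0.56 without female day 7 replicate 1 and 0.59 without male day 7 replicate 1.

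Fibre upkeep genes gave few calls. Of 12 dystrophin complex genes 3 fell (25%, against 16.7% of all tested genes) and 1 rose (8.33%, against 18.5%). The falls were Sntb1 (-1.78 ± 0.42), the dystroglycan gene Dag1 (-0.99 ± 0.28) and Utrn (-0.30 ± 0.11). In the atrophy and myostatin list 1 of 14 rose (7.14%, against 18.5% of all tested genes) and 3 fell (21.4%, against 16.7%). Fbxo30 (-0.59 ± 0.17) was among the latter. Eif4ebp1, a repressor of translation, was 63.8 to 80.2 CPM (median 72.9) at day 4 and 26.3 to 61.1 CPM (median 49.2) at day 7, with no overlap (-0.60 ± 0.17). Klf15 (1.33 ± 0.44) and Fkbp5 (-0.72 ± 0.24), both targets of glucocorticoids, moved in opposite directions, Klf15 upward, and both calls were lost without female day 4 replicate 2. Klf15 was also lost in 4 other fits that left out 1 library, with a change of 0.80 without female day 7 replicate 1, and Fkbp5 without male day 7 replicate 1.

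**Figure D3:**
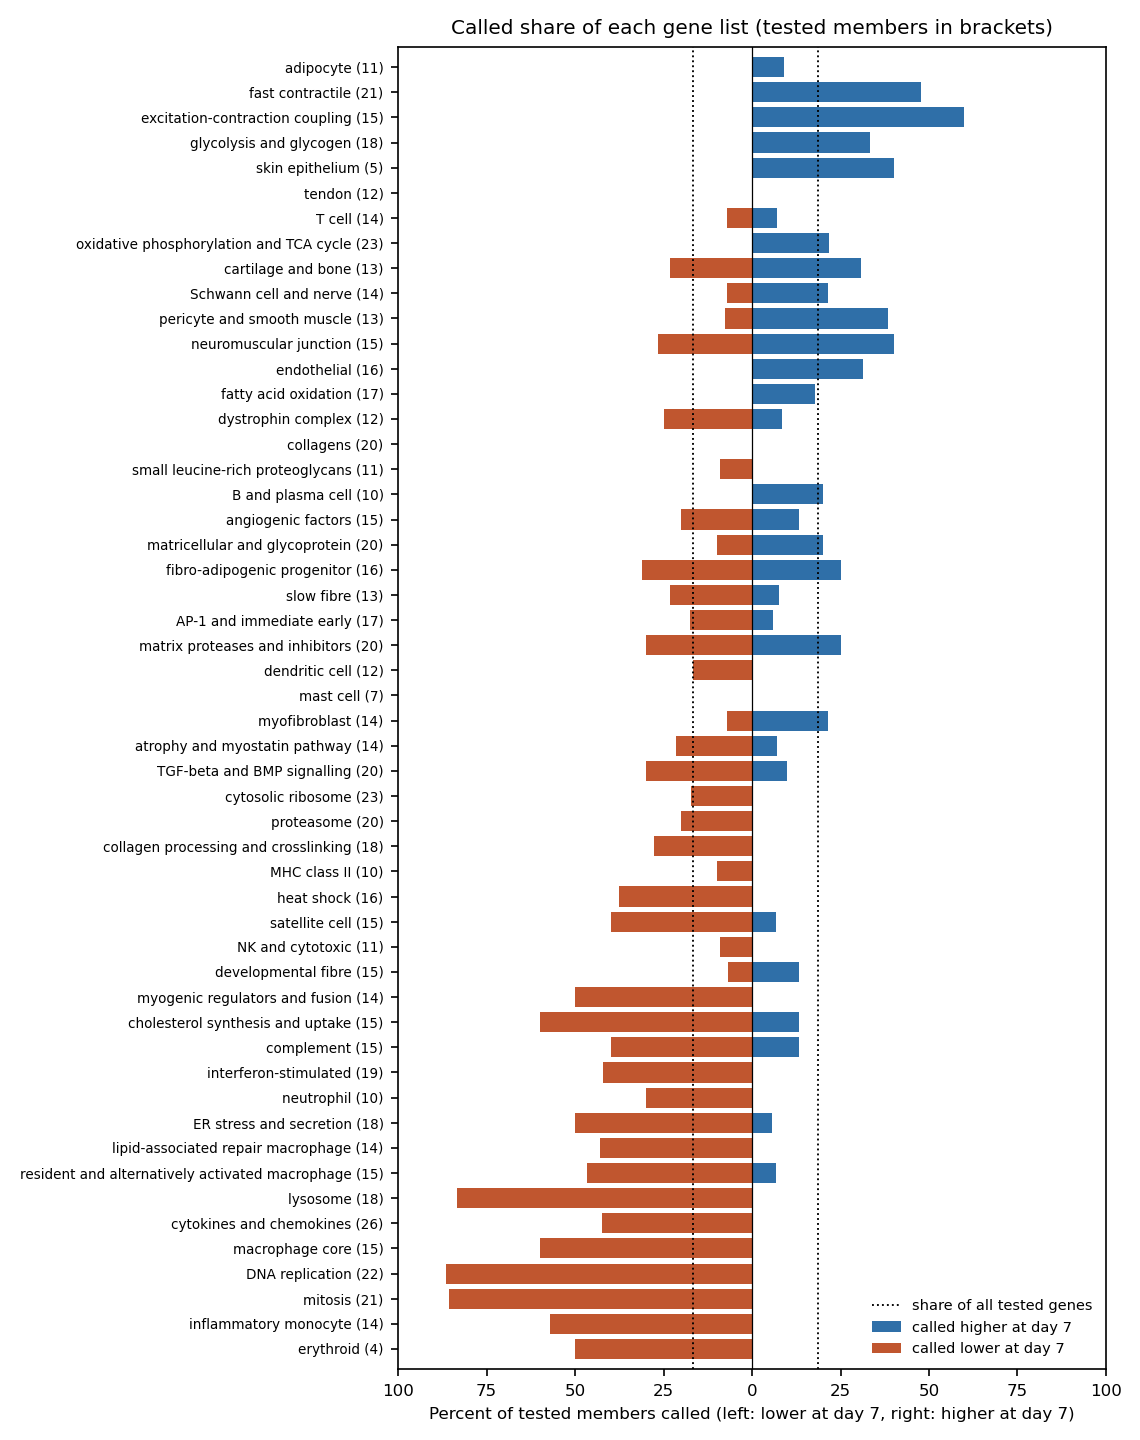
Percent of tested members of each of 52 gene lists called higher (blue, to the right) or lower (orange, to the left) at day 7 than at day 4, ordered by median change, with the number tested in brackets. Dotted lines mark the shares of all tested genes, 18.5% higher and 16.7% lower; mitosis, DNA replication and lysosome reach over 80% lower, and excitation-contraction coupling 60% higher.

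The largest changes of all, among genes with a mean of at least 5 CPM and no overlap between the days, lay partly outside the lists. Adamts16, a secreted metalloprotease, was 0.390 to 1.52 CPM (median 1.26) at day 4 and 4.16 to 18.3 CPM (median 8.70) at day 7 (3.08 ± 0.34, edgeR adjusted p = 1.87e-05). Meg3, an imprinted long non-coding RNA, was 204 to 419.6 CPM (median 255) at day 4 and 692 to 4243 CPM (median 1688) at day 7, and every day 7 library held more than the highest day 4 library (2.94 ± 0.36, edgeR adjusted p = 4.19e-05). Mdk, the heparin-binding growth factor midkine, was 11.0 to 20.1 CPM (median 14.4) at day 4 and 30 to 159.6 CPM (median 70.5) at day 7 (2.37 ± 0.34, edgeR adjusted p = 1.30e-04). At day 11 these genes averaged 11.3 ± 2.33 CPM, 2366 ± 786 CPM and 102 ± 57.1 CPM, against 0.139 ± 0.161 CPM, 133 ± 55.6 CPM and 1.91 ± 0.500 CPM in uninjured muscle.

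Further rises were those of Atxn7l2 (2.33 ± 0.28), a subunit of a chromatin-modifying complex, the extracellular matrix gene Hmcn2 (2.36 ± 0.35), the LIM domain gene Zfp185 (2.23 ± 0.29), the forkhead factor gene Foxn3 (2.12 ± 0.35), the keratin gene Krt18 (2.02 ± 0.50) and the non-coding gene Nctc1 (2.01 ± 0.36). Mir133a-2, a muscle microRNA gene, rose (2.36 ± 0.35). Its counts come from total RNA with strand handling unknown, so they cannot be told apart from reads of an overlapping transcript. Hmcn2, Nctc1 and Chrne had their lowest value in female day 4 replicate 2.

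Gal, which encodes the neuropeptide galanin, was 14.7 to 29.8 CPM (median 23.7) at day 4 and 0.368 to 2.64 CPM (median 0.699) at day 7. It fell by 4.39 ± 0.41 (edgeR adjusted p = 1.12e-05), and male day 7 replicate 2 was the highest day 7 library. Slpi, a secreted inhibitor of leukocyte proteases, was 5.94 to 31.7 CPM (median 12.1) at day 4 and 0.552 to 1.68 CPM (median 1.23) at day 7 (-3.52 ± 0.56, edgeR adjusted p = 3.06e-04). Siglec1, the sialic acid receptor of macrophages, was 34.4 to 54.0 CPM (median 43.2) at day 4 and 2.02 to 11.7 CPM (median 6.51) at day 7 (-2.61 ± 0.36), and St8sia2, which adds polysialic acid to the adhesion molecule NCAM, 27.4 to 61.1 CPM (median 39.1) at day 4 and 3.46 to 12.4 CPM (median 6.23) at day 7 (-2.49 ± 0.34). All 24 genes chosen for the size of their change, 12 in each direction, were called in every fit that left out 1 library. They were chosen from these same libraries for large changes without overlap, which favours this outcome.

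**Figure D4:**
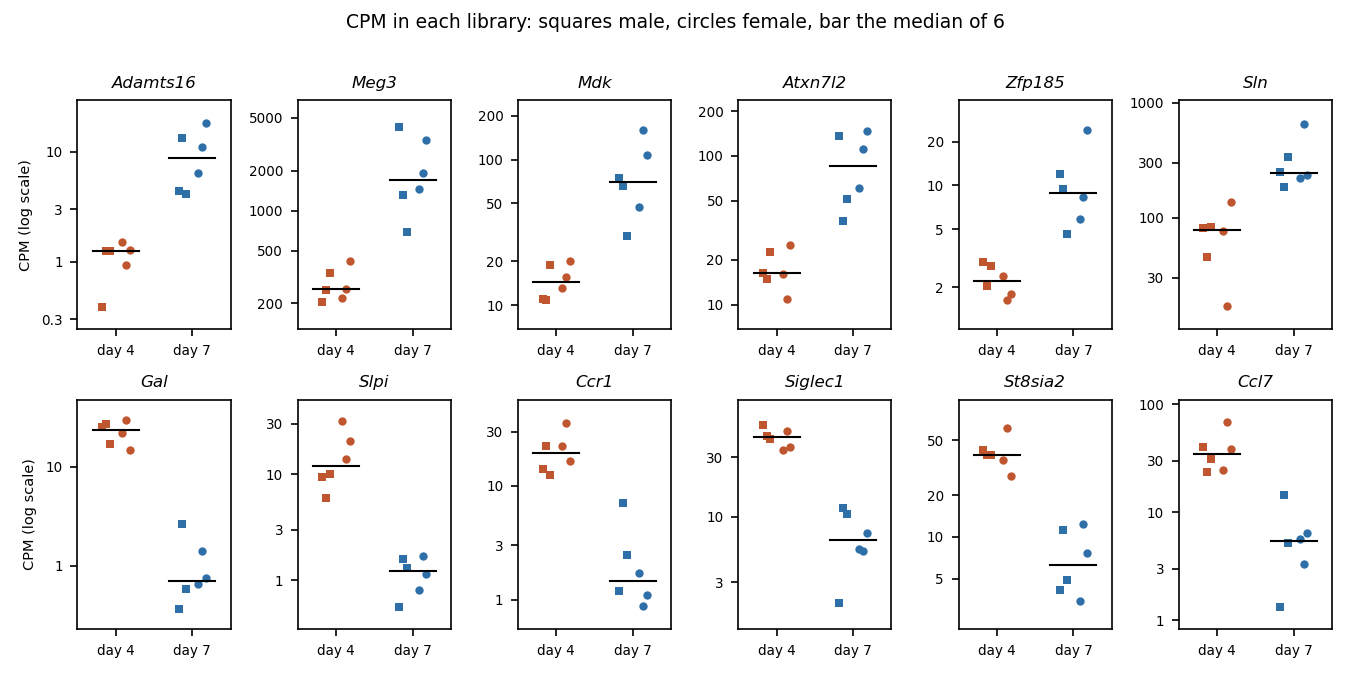
CPM of 12 of the genes with the largest changes in each library on log scales, day 4 in orange and day 7 in blue, squares male and circles female, with a bar at the median of 6. The day 4 and day 7 libraries do not overlap for any of them, and male day 7 replicate 2 is the highest day 7 library for Gal, Ccr1, Siglec1 and Ccl7.

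The sexes were compared in the same fit. Within males 55 genes were called (0.321% of those tested) and within females 4049 (23.6%), but the difference between the sexes in the step from day 4 to day 7 gave 0 calls by edgeR (0.0%), with a smallest adjusted p of 1.0. By DESeq2 1 gene was called, and 317 genes (1.85%) had an unadjusted edgeR p under 0.05. The count in males was 1726 without male day 7 replicate 2, and that in females was 528 without female day 4 replicate 2. Of the 6034 called genes 6027 had the same direction in both sexes, as had all 149 called genes that are named by rule. Genes were called on the mean change of both sexes, which favours a shared direction, so these counts do not compare the sexes. Among genes with unequal estimates, Arg1 changed by -1.30 ± 0.70 in males and -5.48 ± 0.72 in females (difference -4.18 ± 1.0, edgeR adjusted p = 1.000).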

How the data were processed

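Total RNA libraries of tibialis anterior muscle were deposited by the authors as 1 table per library, holding whole-number read counts per gene symbol. The reads were aligned with STAR to mm39, and edgeR is also named, per the submitters' processing notes. How reads were counted, with which program versions and gene models, and whether strand was used, is not given in the sources used here. Among counts of 1 to 20, 65.5% to 73.8% were even in each library, so 1 fragment may often count as 2, and counts were also halved. Without strand, reads of overlapping genes cannot be told apart, and near-identical copies are uncertain. Genes of the mitochondrial genome were not analysed here.

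All 30 libraries in 10 groups of 3 (sex by day) were fitted with edgeR 4.0.16 in R 4.3.3, using filterByExpr (17136 of 26264 listed genes kept, 9128 removed), TMM scaling and the quasi-likelihood test with Benjamini-Hochberg adjustment. Day 7 was compared with day 4 over both sexes, within each sex and between the sexes. The log2 CPM used for list levels and components had a prior count of 2. DESeq2 1.42.0, other scalings and filters, thinning, the 12 libraries alone, a block for the replicate number and the removal of each library in turn were the alternatives, and leaving out female day 4 replicate 2 together with female day 7 replicate 3 was added after seeing the data. Totals were 47936072 to 57277336 counts at day 4 and 20674040 to 52483561 at day 7. The least different pair of replicates differed by a chi-square of 58.6 per degree of freedom, far more than sampling noise, so each library was counted separately. Same-numbered libraries of a sex did not deviate together (r -0.26 to 0.29, above 0.1 in 3 of 6 pairs), so the numbers were not taken to pair samples.

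The members and the 52 lists (815 genes, 812 in the files, 785 tested) were chosen with earlier results of these data known. Genes were named by rule: the 12 largest called rises and falls among genes with a mean of at least 5 CPM, a symbol of their own and no overlap between the days, the 3 called members of each list with the largest change and a mean of at least 1 CPM, and a panel of 26. The test between the sexes gave no gene to name. Other genes, including Arg1 as an example of unequal sexes, were chosen after their values were seen. A few genes picked by this rule are left out of the text. Promoter sequences are from RefSeq (GRCm38.p6), which is not the build of the files, and were matched by symbol. Scripts were tested on simulated data.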

Additional observations from a re-analysis of the deposited data

Results flagged for a closer look

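Values are log2 CPM of a library against the range of the other 5 libraries of its day, listed where the gap to the nearest was wide for a group of 6. Chance flags about 1 in 20 groups, and 45 of 326 gene and day groups and 17 of 104 list and day groups stood apart, 43 of these 62 in female day 4 replicate 2. In female day 4 replicate 2, muscle fibre and other genes that lay low included Chrne at -1.95 against 2.92 to 3.61, Hmcn2 at 1.66 against 4.59 to 5.56, Nctc1 at 3.14 against 4.80 to 5.71 and Pvalb at 6.06 against 10.31 to 11.80. Also apart in that direction were Tnni2 at 8.20 against 10.87 to 11.60, Mylk2 at 4.87 against 7.66 to 8.08, Clcn1 at 2.61 against 5.50 to 5.84 and Atp2a1 at 10.48 against 12.64 to 13.26. Further values were Klf15 at -0.025 against 3.15 to 3.88, Phkg1 at 3.22 against 6.0 to 6.58, Pgam2 at 7.49 against 9.21 to 9.99 and Gpd1 at 3.51 against 5.99 to 7.00. 

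Other genes lay low in the same library. These were Cox7a1 at 2.88 against 5.72 to 6.74, Cox8b at 4.43 against 6.61 to 7.36, Cox6a2 at 5.59 against 8.14 to 8.86 and Eci1 at 4.10 against 5.19 to 5.60. Also apart in that direction were Acadvl at 6.52 against 7.28 to 7.63, Tpm2 at 10.73 against 12.28 to 12.78, Clec3b at -0.49 against 2.41 to 3.99 and Dpt at 4.40 against 5.69 to 6.43. Further values were Sox17 at 3.01 against 3.85 to 4.21, Kcnj8 at 1.26 against 2.65 to 3.41, Lipe at 2.99 against 3.61 to 3.84 and Ckm at 8.33 against 10.62 to 11.33.

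Genes that lay high in female day 4 replicate 2 were Nes at 9.16 against 8.55 to 8.77, Fkbp5 at 5.61 against 4.51 to 4.84, Plin2 at 8.25 against 7.14 to 7.55 and C5ar1 at 6.73 against 5.55 to 5.90. Also apart in that direction were Has2 at 4.18 against 2.35 to 2.93, Hspa5 at 9.15 against 8.42 to 8.65, Pdia6 at 8.40 against 7.59 to 7.75 and Rpl3 at 9.24 against 8.77 to 8.94.

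Lists with a low mean in female day 4 replicate 2 were the fast contractile list at 8.09 against 10.59 to 11.03, the excitation-contraction coupling list at 7.01 against 8.17 to 8.69, the neuromuscular junction list at 4.71 against 5.06 to 5.22 and the glycolysis and glycogen list at 7.36 against 8.70 to 9.14. Also apart in that direction were the oxidative phosphorylation and TCA cycle list at 6.93 against 7.87 to 8.20, the fatty acid oxidation list at 5.47 against 6.0 to 6.25, the dendritic cell list at 2.00 against 2.50 to 2.69 and the T cell list at -1.08 against -0.38 to -0.015. Further values were the small leucine-rich proteoglycans list at 3.75 against 4.37 to 4.59 and the heat shock list at 6.67 against 7.18 to 7.43. The list with a high mean in it was the ER stress and secretion list at 6.92 against 6.38 to 6.53.

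In female day 4 replicate 1 the values apart were Folr2 at 5.29 against 5.73 to 5.97. In female day 7 replicate 1 the values apart were Sp7 at -1.95 against -0.044 to 1.00 and the dendritic cell list at 1.40 against 2.20 to 2.64. In female day 7 replicate 2 the values apart were the cytosolic ribosome list at 9.43 against 8.61 to 8.91. In female day 7 replicate 3 the values apart were the heat shock list at 5.91 against 6.80 to 7.15 and the proteasome list at 5.91 against 6.43 to 6.68. In male day 4 replicate 1 the values apart were Adamts16 at -1.18 against -0.025 to 0.65 and Acta2 at 8.70 against 9.37 to 9.62. In male day 4 replicate 3 the values apart were the interferon-stimulated list at 5.56 against 4.22 to 4.69. In male day 7 replicate 1 the values apart were Chil3 at -4.32 against -1.24 to 0.49, Cdh15 at 4.32 against 4.99 to 5.38 and Cd3e at -2.41 against -0.88 to -0.11. In male day 7 replicate 2 the values apart were Ccl2 at 4.31 against 1.71 to 2.61, Gins2 at 3.20 against 1.02 to 1.69, Sntb1 at 0.45 against -0.35 to -0.089, Cyp51 at 4.41 against 2.62 to 3.10, Loxl2 at 7.46 against 4.74 to 5.57, Ccn2 at 6.40 against 4.50 to 4.94 and the cholesterol synthesis and uptake list at 4.14 against 3.61 to 3.76.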

How the results depend on the processing

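The direction of all 149 called genes named by rule held in every alternative, and 110 of them were called in each of the 12 fits that left out 1 library. The other 39 lost the call at least once, 30 of them without male day 7 replicate 1, 27 without female day 7 replicate 1 and 24 without female day 4 replicate 2. Against 6034 genes called (3174 higher, 2860 lower, 4049 in females, 55 in males, 0 between the sexes), testing for a change beyond 2-fold gave 79 (48, 31, 32, 0 and 0). Library size alone as scaling gave 2019 higher and 8 in males. The 12 libraries alone gave 4991 genes (2543 higher, 2448 lower), with 2324 in females and 25 in males. In that fit 22 of the 149 named genes lost their call. Besides those given above, they included Tpm2, Actn2, Gpd1, Klf15, Lipe, Lox, Loxl2, Timp4, Nr4a1, Egr2, Irf8, Rgs5 and Kcnj8. DESeq2 gave 816 in males and 1 between the sexes, and halved counts 149 in males. The replicate block gave 5695 genes (2872 higher, 2823 lower) and 16 in males. Leaving out 1 library gave 3974 to 6777 genes, 1968 to 3502 higher, 1934 to 3275 lower, 528 to 4515 in females, 2 to 1726 in males and 0 between the sexes. Without female day 4 replicate 2 and female day 7 replicate 3 together, 3651 genes were called (1801 higher, 1850 lower, 16 in females, 222 in males). The other changes of scaling and filter, and thinning to the smallest total, kept the count of all calls between 5653 and 6004. The cause of these shifts was not tested, and the fits that left out libraries also had fewer samples.

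Directions turned only for genes that were not called. Leaving out 1 library gave Ckm -0.15 (without female day 7 replicate 1) to 0.98, Col1a1 -0.39 (without male day 7 replicate 2) to 0.29, with -0.024 without female day 7 replicate 3 and -0.014 without male day 4 replicate 1, and Col3a1 -0.045 (without male day 7 replicate 2) to 0.51. Pecam1 was 0.017 without female day 4 replicate 1 and 0.017 without male day 7 replicate 2. Totals from 20674040 counts at day 7 limit genes under about 1 CPM most.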

Other observations

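Day 11 and uninjured muscle were also read for 6 genes, 2 of them not called between days 4 and 7 (Myh3 and Col1a1), given as means ± SD of 6 libraries (3 male, 3 female) with no test. Pax7 averaged 11.2 ± 3.66 CPM at day 4, 3.62 ± 1.47 CPM at day 7, 2.07 ± 1.05 CPM at day 11 and 1.96 ± 1.19 CPM in uninjured muscle. Spp1 averaged 1805 ± 596 CPM, 278 ± 314 CPM, 88.8 ± 100.2 CPM and 1.34 ± 0.804 CPM at the same points, and Ccl2 40.8 ± 16.8 CPM, 7.33 ± 6.15 CPM, 3.55 ± 2.68 CPM and 0.264 ± 0.190 CPM. The fetal receptor gene Chrng averaged 200.3 ± 31.8 CPM, 75.9 ± 41.5 CPM, 46.4 ± 18 CPM and 0.302 ± 0.199 CPM. Embryonic myosin Myh3 averaged 1945 ± 321 CPM, 1085 ± 555 CPM, 512 ± 292 CPM and 4.29 ± 2.89 CPM, and Col1a1 3815 ± 827 CPM, 4125 ± 2805 CPM, 5091 ± 2945 CPM and 78.0 ± 46.7 CPM.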
